A study of Mus musculus with 6 samples.

Results

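Mammary tumor cells carrying an shRNA against Sca-1 were compared with control cells carrying an shRNA against luciferase. Of the 10 IL-6 family genes described, interleukin 6 (Il6) had the largest fold difference. It averaged 444.5 ± 178 intensity units in shSca-1 cells, against 60.0 ± 46.9 in shLuc cells (SD, n = 3 arrays each). The transcription factor Stat3 lay the other way on its brightest probe set, at 975 ± 69.0 in shSca-1 cells and 1461 ± 236 in shLuc cells. The other cytokines, the receptor chains and the feedback inhibitor Socs3 overlapped between the groups on every probe set.

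The genes described are 10 members of the IL-6 pathway, out of 18193 genes that at least 1 probe set measured alone: the cytokines Il6, Il11, Lif and Clcf1, the receptor chains Il6ra, Il6st, Osmr and Lifr, the transcription factor Stat3 and the inhibitor Socs3. All probe sets that the platform annotation assigns to these symbols were taken, 26 of the 45037 tested, and none of the 26 is assigned to another gene. The group was chosen from the shSca-1 to shLuc comparison of these same 6 arrays. The members' own differences are therefore given as a description, with standard errors. Where members are named as past a p threshold, this too is a description and not a test of the group.

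Most cytokines of this family bind a receptor of their own or go directly to pairs of signaling chains that contain gp130, the product of Il6st. Janus kinases bound to gp130 phosphorylate STAT3, which moves to the nucleus and switches on genes that include its own inhibitor Socs3. In mammary gland, LIF and STAT3 are known for their part in the involution that follows lactation, and IL-6 is known as an inflammatory cytokine of tumors.

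Both groups were bulk cultures of Wnt1-YL, a mouse mammary tumor cell line that the study derived from 1 invasive carcinoma of an FVB/n mouse with the MMTV-Wnt1 transgene, in which a mammary tumor virus promoter drives Wnt1. The shSca-1 cells (3 arrays) carried a lentiviral shRNA against Sca-1, the cell surface protein encoded by Ly6a, and the shLuc cells (3 arrays) carried the luciferase control shRNA. All cells grew in medium with serum, insulin and EGF, and RNA was read on Affymetrix mouse genome arrays. The labels call the replicates biological but do not say whether they were separate transductions or cultures, so every error below measures the spread between these arrays. In bulk RNA, fewer cells that express a gene and less of its RNA in each cell cannot be told apart.

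The probe set for Ly6a read 285, 314 and 306 in shSca-1 cells, against 7646, 7362 and 2843 in shLuc cells. Its log2 fold change was -4.17 (SE 0.36; adjusted p = 0.051, limma with Benjamini-Hochberg adjustment over all probe sets), and -4.64 without shLuc replicate 3 (adjusted p = 5.2e-07). This array stood apart from the other 5. On it 135 probe sets reached at least 500 and over 10 times the value of every other array, while no other array had such a probe set. Its 6 luminal keratin and adhesion markers summed to 16571, against 270.1 to 293 on the shSca-1 arrays and 275 and 224 on the other shLuc arrays. The 4 basal markers were Krt5, Krt14, Krt17 and Trp63. They summed to 23036 to 27349 in shSca-1 cells, and to 24201, 24680 and 13313 on shLuc arrays 1, 2 and 3. Krt5 and Krt14, the brightest, were higher on every shSca-1 array than on any shLuc array, as were 7.18% of all genes. Without shLuc replicate 3 the log2 differences were 0.11 (SE 0.07) for Krt5 and 0.12 (SE 0.07) for Krt14. Krt17 lay the other way, at 831, 825 and 1171 in shSca-1 cells, against 1583, 1655 and 1454 in shLuc cells. Its log2 difference was -0.75 (SE 0.15). Of all genes, 11.5% were lower on every shSca-1 array than on any shLuc array. Trp63 overlapped, at 1531, 1464 and 2898 in shSca-1 cells, against 2950, 2870 and 939 in shLuc cells. Because shLuc replicate 3 stood apart, many values are also given without it.

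Among the cytokines, Il6 is the founding member and drives the acute phase response. Its single probe set, 1450297_at, read 528, 565 and 240.2 in shSca-1 cells, against 44.1, 23.2 and 113 in shLuc cells. All shSca-1 arrays were above all shLuc arrays, with shSca-1 replicate 3 and shLuc replicate 3 nearest to each other. The probe set lay between the 75.9 and 86.4 percentile of all probe sets on the shSca-1 arrays, and between the 38.8 and 65.7 percentile on the shLuc arrays. The difference was 3.09 on the log2 scale (SE 0.59), an 8.53-fold ratio of geometric means. It was 3.70 (SE 0.40) without shLuc replicate 3 and 3.49 (SE 0.64) without shSca-1 replicate 3. With all intensities under 64 set to 64, which holds 2 of the 3 shLuc values at the floor, it was 2.43.

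Macrophages and fibroblasts also make Il6, so their markers are given beside it. The leukocyte gene Ptprc, which encodes CD45, read 14.1, 11.8 and 20.5 in shSca-1 cells, against 8.40, 3.98 and 11.6 in shLuc cells, below the array medians of 37.3 to 40.6. The 8 macrophage and leukocyte markers measured, out of 9 listed, summed to 566 to 728 on the shSca-1 arrays. On the shLuc arrays they summed to 778, 748 and 1172, with Cd14 supplying 809.9 on shLuc replicate 3. Of the 8, Ptprc, Adgre1, Itgam and Lyz2 had a positive log2 difference (0.20 to 1.04). Cd68, Csf1r, Cd14 and Cd3e had a negative one (-0.75 to -0.20). Groups did not overlap for Ptprc and Lyz2, higher in shSca-1 cells, and for Csf1r, lower. Over all genes, groups did not overlap for 7.18% with shSca-1 higher and for 11.5% with shSca-1 lower. Cd68 read 53.9, 77.6 and 212 in shSca-1 cells, against 311, 298 and 32.9 in shLuc cells. The 7 fibroblast markers summed to 394 to 419 on the shSca-1 arrays and to 187, 161 and 348 on the shLuc arrays. Of the 7, Pdgfra, Pdgfrb, Col1a1 and Thy1 had a positive log2 difference (0.94 to 1.58) and Col1a2, Dcn and Lum a negative one (-0.64 to -0.10). The growth factor receptor gene Pdgfra read 96.2, 108 and 292 in shSca-1 cells, against 60.8, 48.6 and 147 in shLuc cells. Its relative Pdgfrb read 157, 169.6 and 3.26 in shSca-1 cells, against 11.3, 10.5 and 27.5 in shLuc cells. Both had their extreme shSca-1 value on replicate 3, the highest for Pdgfra and the lowest for Pdgfrb. The collagen gene Col1a1 read 36.8, 38.8 and 18.0 in shSca-1 cells, against 17.4, 12.5 and 15.0 in shLuc cells, and the surface protein gene Thy1 read 15.9, 15.0 and 30.3 in shSca-1 cells, against 6.91, 10.5 and 11.4 in shLuc cells. With all intensities under 64 set to 64, the log2 differences of the dim Col1a1, Thy1, Dcn and Lum were 0. Those of Pdgfra, Pdgfrb and Col1a2 were 0.78, 0.90 and -0.18. The 4 endothelial markers summed to 120.3 to 129.7 on the shSca-1 arrays, and to 129.5, 132 and 105 on the shLuc arrays. The part of the fibroblast markers in the Il6 difference was not tested.

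Lif, which signals through Lifr and gp130, and the gp130 cytokine Il11 did not separate the groups. On the brighter Lif probe set, 1421207_at, the shSca-1 arrays read 271, 305 and 479, and the shLuc arrays read 212, 221 and 369. Within each group the third replicate was the highest, and shLuc replicate 3 was above 2 of the 3 shSca-1 arrays. These values differed by 0.40 on the log2 scale (SE 0.29), by 0.65 when shLuc replicate 3 was left out, and by 0.15 when shSca-1 replicate 3 was. The dim second probe set, 1450160_at, ranged over 13.5 to 27.4 in shSca-1 cells and 18.3 to 26.1 in shLuc cells. Il11 read 45.4, 61.3 and 105 in shSca-1 cells, against 115, 78.1 and 41.7 in shLuc cells. Replicates 1 and 2 of shSca-1 were below those of shLuc, and replicate 3 lay the other way round. The log2 difference was -0.12 (SE 0.45), -0.51 (SE 0.35) when shLuc replicate 3 was left out, and -0.45 when shSca-1 replicate 3 was.

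Clcf1 encodes a ligand of the ciliary neurotrophic factor receptor. Its brightest probe set, 1437270_a_at, read 107, 123 and 122 in shSca-1 cells, against 104, 88.7 and 161 in shLuc cells. All 3 Clcf1 probe sets had log2 differences between -0.09 and 0.10, each smaller than its standard error. Without shLuc replicate 3 they were 0.28 (SE 0.16) on 1437270_a_at, 0.13 on 1437271_at and 0.08 on 1450262_at.

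**Figure D1:**
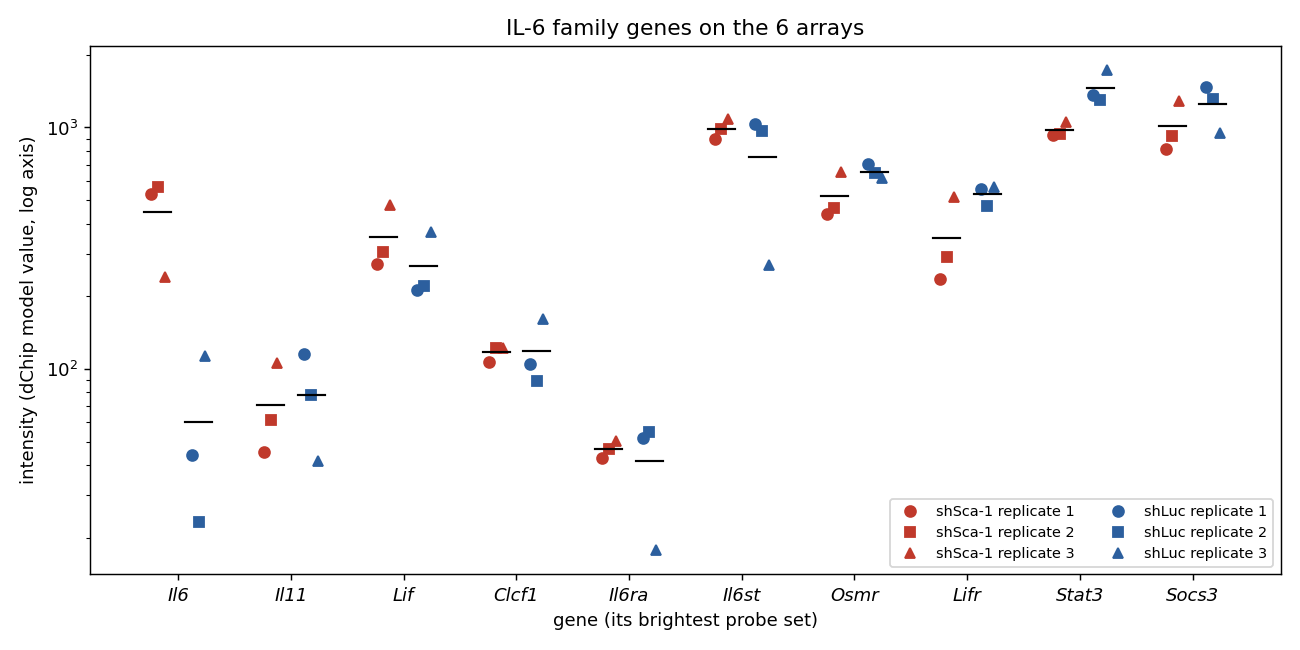
Intensity on each array (log axis) of the 10 IL-6 family genes, each by its brightest probe set, with shSca-1 arrays in red on the left and shLuc arrays in blue on the right of each gene; symbols mark the replicate and horizontal bars the group means. Only Il6 (240.2 to 565 in shSca-1 cells, 23.2 to 113 in shLuc cells) and Stat3 (931 to 1054 in shSca-1 cells, 1295 to 1731 in shLuc cells) show no overlap, and the order of genes by height carries no meaning because probe sets differ in brightness.

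The upstream bases of Il6, Lif and Socs3 are shown because they cover the cytokine whose groups were apart, a related cytokine whose groups overlapped, and the STAT3 feedback gene. Each is the 250 bases before the RefSeq start site, build GRCm38.p6, written 5′ to 3′ on the gene's strand: Il6 at chr5:30012864-30013113 (plus), Lif at chr11:4257318-4257567 (plus) and Socs3 at chr11:117969367-117969616 (minus). Capitals mark matches on either strand to the NF-κB letters GGGNNNNNCC, the AP-1 letters TGANTCA, the C/EBP letters TTGNNCAA and the STAT letters TTCNNNGAA.
Il6: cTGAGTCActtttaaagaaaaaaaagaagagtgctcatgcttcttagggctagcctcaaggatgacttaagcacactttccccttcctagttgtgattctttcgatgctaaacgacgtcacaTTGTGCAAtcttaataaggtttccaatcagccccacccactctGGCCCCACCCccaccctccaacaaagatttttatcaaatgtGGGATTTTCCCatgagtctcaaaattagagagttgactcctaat
Lif: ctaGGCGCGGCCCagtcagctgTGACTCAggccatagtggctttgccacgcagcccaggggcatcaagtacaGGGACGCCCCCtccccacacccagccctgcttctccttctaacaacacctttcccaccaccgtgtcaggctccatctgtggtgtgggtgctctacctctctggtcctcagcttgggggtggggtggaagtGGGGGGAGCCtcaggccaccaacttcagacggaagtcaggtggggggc
Socs3: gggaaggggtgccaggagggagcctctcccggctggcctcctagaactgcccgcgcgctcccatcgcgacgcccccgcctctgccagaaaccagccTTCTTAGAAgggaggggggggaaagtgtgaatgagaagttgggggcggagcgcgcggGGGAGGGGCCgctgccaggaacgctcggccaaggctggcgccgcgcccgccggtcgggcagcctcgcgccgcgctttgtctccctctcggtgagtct

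In Il6 the AP-1 letters TGAGTCA stood 249 to 243 bases before the start, the C/EBP letters TTGTGCAA 128 to 121 bases before it, and the NF-κB letters at 3 places, 85 to 76, 44 to 35 and 43 to 34 bases before it, the last 2 being overlapping reads of GGGATTTTCCC. Lif held 1 AP-1 match and 4 NF-κB matches, of which 2 overlap, and no C/EBP or STAT match. Socs3 held the STAT letters TTCTTAGAA 154 to 146 bases before the start and 1 NF-κB match. Of 32851 mouse promoters of the same length, 45.8% held the NF-κB letters, 6.75% the AP-1 letters, 5.65% the C/EBP letters and 7.02% the STAT letters. A promoter was found for 9 of the 10 genes, the exception being Clcf1. AP-1 and NF-κB letters occurred in both Il6 and Lif.

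Among the receptors, Il6ra encodes the IL-6 binding chain. Its probe set 1452416_at read 42.8, 46.6 and 50.5 in shSca-1 cells and 51.9, 54.9 and 17.7 in shLuc cells. The log2 difference was 0.33 (SE 0.45), and -0.20 without shLuc replicate 3, whose low value carried the positive sign. The second probe set, 1422270_a_at, ranged over 40.5 to 47.6 in shSca-1 cells and 29.9 to 42.3 in shLuc cells. There the log2 difference was 0.26 (SE 0.23), and 0.27 (SE 0.27) without shLuc replicate 3.

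Il6st encodes gp130, the signaling chain shared by IL-6, IL-11, LIF and oncostatin M. Its brightest probe set, 1437303_at, read 897, 987 and 1082 in shSca-1 cells, against 1035, 964 and 269.8 in shLuc cells. The shSca-1 arrays lay with the first pair of shLuc arrays, and shLuc replicate 3 was far below all 5. This gave a log2 difference of 0.61 (SE 0.49), and of -0.02 without shLuc replicate 3. That array was also the lowest of the 6 on the other 3 Il6st probe sets, at 452 on 1452843_at, 209 on 1421239_at and 128 on 1460295_s_at, where the shSca-1 arrays ranged over 797 to 868, 219 to 260.1 and 238 to 289. Over the 4 probe sets the log2 difference ran over 0.01 to 0.61 with all arrays, and over -0.08 to 0.21 without shLuc replicate 3.

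Osmr, the oncostatin M receptor chain that pairs with gp130, read 439.8, 462 and 655 on 1418674_at in shSca-1 cells, against 705, 646 and 618 in shLuc cells. The first pair of shSca-1 arrays was below all shLuc arrays, and shSca-1 replicate 3 was among them. On the log2 scale the groups differed by -0.36 (SE 0.17), and by -0.54 without shSca-1 replicate 3. Of the other Osmr probe sets, 1418675_at differed by -0.11 (SE 0.17) and the dim 1459217_at by -0.32 (SE 0.25).

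Lifr encodes the chain that pairs with gp130 for LIF, and followed the same layout on its brightest probe set. On 1454984_at the shSca-1 arrays read 236, 290.4 and 517, and the shLuc arrays read 554, 474 and 569. Replicates 1 and 2 of shSca-1 were below every shLuc array while shSca-1 replicate 3 was within their range. The log2 difference was -0.69 (SE 0.28), -0.64 without shLuc replicate 3, and -1.02 (SE 0.16) without shSca-1 replicate 3. The 2 dimmer Lifr probe sets did not repeat this layout. On 1450207_at the shSca-1 arrays read 44.7, 30.9 and 44.9, against 45.8, 31.9 and 51.3 in shLuc cells, and the log2 difference was -0.09 (SE 0.28). On 1425107_a_at the shSca-1 arrays read 19.3, 22.3 and 20.7, against 30.3, 16.6 and 54.0 in shLuc cells. Its difference was -0.54 (SE 0.44), in the direction of the brightest probe set, and -0.11 without shLuc replicate 3.

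**Figure D2:**
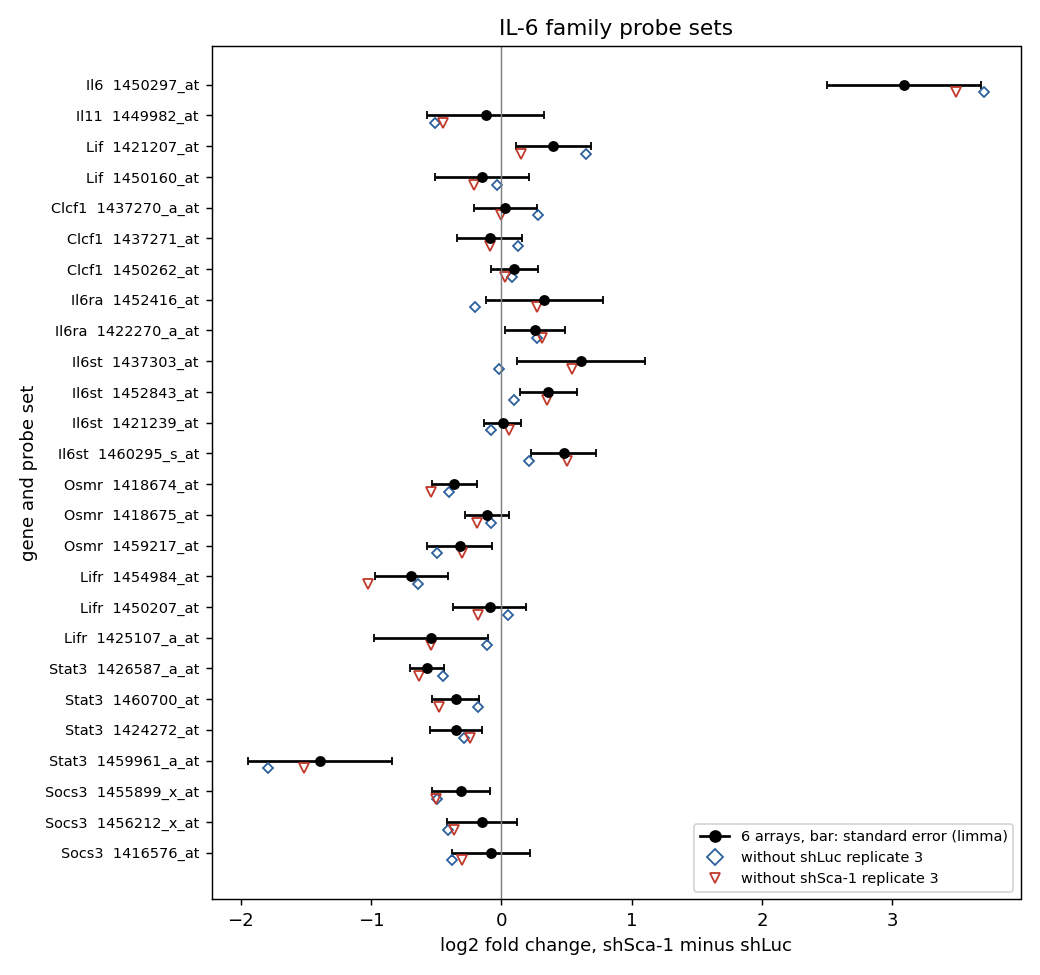
Log2 fold change (x axis, shSca-1 minus shLuc) of the 26 IL-6 family probe sets (y axis); black points use all 6 arrays with limma's standard error as the bar, open blue diamonds leave out shLuc replicate 3 and open red triangles leave out shSca-1 replicate 3. Il6 stays far to the right in each (3.09, 3.70 and 3.49), the Il6st point at 0.61 moves to -0.02 without shLuc replicate 3, and the Lifr point at -0.69 moves to -1.02 without shSca-1 replicate 3.

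Stat3 encodes the transcription factor that relays these signals. Its brightest probe set, 1426587_a_at, read 931, 939 and 1054 in shSca-1 cells, against 1357, 1295 and 1731 in shLuc cells. All shSca-1 arrays were below all shLuc arrays, and shLuc replicate 3 was the highest. The log2 difference was -0.57 (SE 0.13), a ratio of 0.672, and -0.45 (SE 0.08) without shLuc replicate 3. The second bright probe set, 1460700_at, read 724, 769 and 969.7 in shSca-1 cells, against 922, 919.7 and 1318 in shLuc cells. There shSca-1 replicate 3 lay among the shLuc arrays, and the log2 difference of -0.35 (SE 0.18) was -0.18 without shLuc replicate 3. On 1424272_at the arrays read 55.6, 70.6 and 49.9 in shSca-1 cells and 70.3, 72.2 and 79.3 in shLuc cells, with 1 shSca-1 array just inside the shLuc range. The dimmest, 1459961_a_at, read 20.8, 7.15 and 15.9 in shSca-1 cells and 58.3, 36.2 and 19.9 in shLuc cells. Its log2 difference of -1.39 (SE 0.55) rested on values of 58.3 or less and was 0 with intensities under 64 set to 64. All 4 Stat3 probe sets had a negative difference, with and without shLuc replicate 3.

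Socs3 encodes the inhibitor that STAT3 induces and that binds gp130 and its kinases. On 1455899_x_at it read 816, 923 and 1289 in shSca-1 cells, against 1465, 1318 and 953 in shLuc cells. Replicates 1 and 2 of shSca-1 were the lowest, while shSca-1 replicate 3 and shLuc replicate 3 each lay nearer to the other group. The groups differed by -0.31 on the log2 scale (SE 0.22), and by -0.49 without shLuc replicate 3. On 1456212_x_at the arrays read 552, 616 and 895 in shSca-1 cells and 904, 889 and 523 in shLuc cells, a log2 difference of -0.15 (SE 0.27). On 1416576_at they read 295, 332 and 496 in shSca-1 cells and 485, 465 and 254 in shLuc cells, a log2 difference of -0.08 (SE 0.30). The 3 Socs3 probe sets gave nearly the same profile over the arrays, and without shLuc replicate 3 their differences were -0.49, -0.41 and -0.38.

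**Figure D3:**
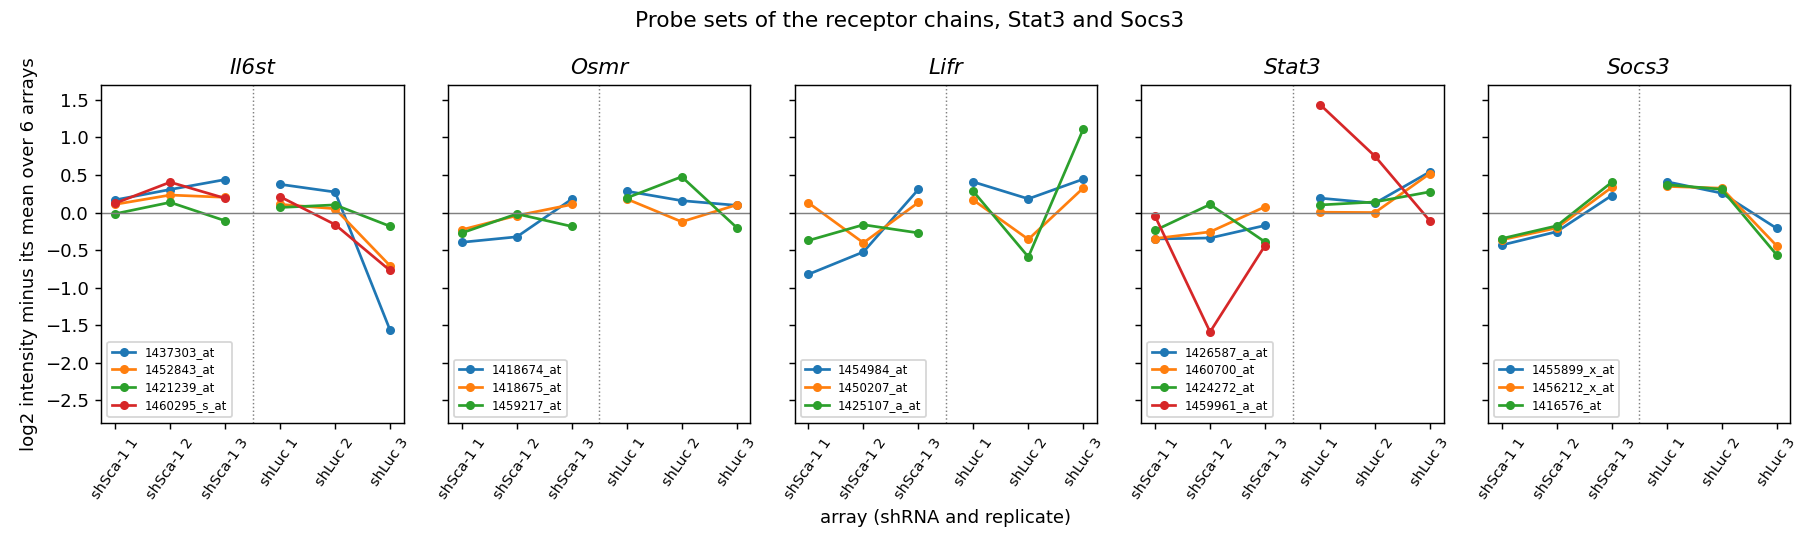
Log2 intensity minus its mean over the 6 arrays (y axis) for every probe set of Il6st, Osmr, Lifr, Stat3 and Socs3, 1 line per probe set, with the shSca-1 arrays left and the shLuc arrays right of the dotted line. The 3 Socs3 lines run together, all 4 Il6st lines have their lowest point at shLuc replicate 3, and the brightest Lifr and Osmr lines reach the shLuc level at shSca-1 replicate 3.

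In 4 of the 26 probe sets, 1 each of Osmr, Lifr, Stat3 and Socs3, shSca-1 replicates 1 and 2 were on 1 side of the shLuc range and shSca-1 replicate 3 within it, a layout that 7.54% of all probe sets had. The Ly6a value of shSca-1 replicate 3, 306, was between those of the other shSca-1 arrays. Groups that did not overlap were found for 1 probe set with shSca-1 higher, Il6 (6.7% of all probe sets), and for 1 with shSca-1 lower, Stat3 1426587_a_at (9.81% of all). The other 24 overlapped.

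The study's thresholds were a p under 0.01, not adjusted, with a change of more than 1.5-fold. With limma's values, Il6 alone of the 26 was past these thresholds, as were 1.83% of all probe sets (225 higher and 599 lower in shSca-1 cells). By the methods' t-test, 0 of the 26, Il6 included, and 1.27% of all probe sets were past them. Without shLuc replicate 3 it was 2 of 26, Il6 and the dim Stat3 1459961_a_at, and 3.56% of all. At an adjusted p under 0.05 no member probe set and 0% of all probe sets passed with 6 arrays, the smallest adjusted p being 0.051; 4 of the 26 (Il6, Lifr 1454984_at, Stat3 1426587_a_at and Stat3 1459961_a_at) and 9.26% of all probe sets had an unadjusted p under 0.05, and the methods' t-test passed 0 of the 26 and 4 of all probe sets after adjustment. Without shLuc replicate 3 the adjusted threshold was passed by 2 of 26, Il6 higher and Stat3 1426587_a_at lower, and by 2.76% of all. Because this comparison chose the members, nothing is read from these shares.

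The other genes of the pathway were taken from 3 lists, with 1 brightest probe set per gene. The first held 13 more ligands and receptors of the family, of which 7 were measured. None passed the study thresholds or had an unadjusted p under 0.05, by limma or by the methods' t-test at its thresholds, and their median log2 difference was -0.03, against -0.04 over all genes. Osm, encoding oncostatin M, the ligand of Osmr, read 46.9, 54.1 and 53.6 in shSca-1 cells, against 35.4, 56.0 and 44.6 in shLuc cells. The gp130 cytokine Ctf1, cardiotrophin 1, was at 22.5 to 47.0 in shSca-1 cells and at 38.5, 22.3 and 161 in shLuc cells. The log2 differences were 0.21 (SE 0.24) for Osm and -0.82 (SE 0.72) for Ctf1, with adjusted p-values of 0.83 and 0.77 (limma). Without shLuc replicate 3 the log2 difference of Ctf1 was 0.00. Il31, an itch cytokine of T cells, differed by 0.26 (SE 0.61) at values under 10 on every array, and Ebi3, a subunit of IL-27 and IL-35, by -0.23 (SE 0.78).

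The second list held kinases, STAT factors and brakes of the pathway, with 28 of 29 genes measured. None passed the study thresholds, against 2.04% of all genes, and the methods' t-test passed 0 of them, while 3 were lower and 0 higher at an unadjusted p under 0.05 (7.05% of all genes were lower). The median log2 difference was -0.12, with 8 of 28 above 0, against a median of -0.04 and 8244 of 18193 above 0 over all genes. Groups did not overlap for 6 genes, with Socs1 higher and Socs4, Socs5, Socs6, Pias4 and Gab1 lower in shSca-1 cells (Socs1, Socs6 and Pias4 were named after their values were seen), against 7.18% of all genes higher and 11.5% lower. Pias4 encodes a SUMO ligase that inhibits STAT factors. Socs4, of the same family of inhibitors as Socs3, read 473, 532 and 591 in shSca-1 cells, against 732, 708 and 672 in shLuc cells. Its log2 difference was -0.41 (SE 0.12; adjusted p = 0.36 by limma). Socs5 read 751, 745 and 895 in shSca-1 cells, against 1009, 1012 and 1259 in shLuc cells, with a log2 difference of -0.45 (SE 0.13; adjusted p = 0.37 by limma). Neither met the fold threshold. Stat6, the transcription factor of IL-4 signaling, read 515, 602 and 814 in shSca-1 cells, against 959, 957 and 733 in shLuc cells, with replicate 3 of both groups toward the other group, as for Socs3. It was 1 gene of the list past the study thresholds without shLuc replicate 3 (log2 difference -0.60; 3.99% of all genes passed), with an adjusted p of 0.13 by limma. Gab1, an adaptor of growth factor and cytokine receptors, read 88.5, 116 and 88.4 in shSca-1 cells, against 132, 127 and 432 in shLuc cells, and differed by -0.42 on the log2 scale without shLuc replicate 3.

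The third list held 30 genes known as STAT3 targets, all measured, many of which other factors also control. The median log2 difference of the list was -0.03, and -0.13 without shLuc replicate 3, against -0.04 over all genes in each case. At the study thresholds 1 of 30 was higher and 0 lower in shSca-1 cells, beside 2.04% of all genes past them in either direction. The gene was Timp1, an inhibitor of matrix metalloproteinases, at 5692, 6280.0 and 6345 in shSca-1 cells and 3450.3, 3529.9 and 3706 in shLuc cells. These values were far apart for the spread within each group, a log2 difference of 0.78 (SE 0.08), with an adjusted p of 0.060 by limma that became 0.0036 without shLuc replicate 3. Groups did not overlap for 1 of the 30 genes with shSca-1 higher and for 4 with shSca-1 lower, against 7.18% and 11.5% of all genes. Fosl2, a subunit of AP-1, was among the 4 lower, at 1053, 1085 and 1242 in shSca-1 cells and 1549.9, 1564 and 1741 in shLuc cells. Its log2 difference was -0.52 (SE 0.10; adjusted p = 0.22 by limma), and -0.47 without shLuc replicate 3 (adjusted p = 0.037). The survival factor Mcl1 read 1888, 1965 and 2339 in shSca-1 cells, against 2849, 2701 and 2881 in shLuc cells, and its relative Bcl2l1 read 523, 462 and 452 in shSca-1 cells, against 549.9, 571 and 635 in shLuc cells. Their log2 differences were -0.45 for Mcl1 (adjusted p = 0.28) and -0.29 for Bcl2l1 (adjusted p = 0.51), both by limma. Without shLuc replicate 3, 5 of the 30 genes passed an adjusted p under 0.05, against 3.89% of all genes. Timp1, Lcn2, the cell division and survival gene Birc5 and the cyclin gene Ccnd1 were higher there and Fosl2 was lower in shSca-1 cells. Lcn2, Birc5 and Ccnd1 were named after their values were seen. With all arrays the log2 differences were 0.20 (SE 0.29) for Birc5 and 0.21 (SE 0.13) for Ccnd1, and both overlapped. On shLuc replicate 3 Birc5 read 3802 and Ccnd1 6018, above the highest shSca-1 values of 2665 and 5900. Lcn2, which encodes an iron-binding protein of inflammation, read 591, 539.6 and 454 in shSca-1 cells, against 316, 334 and 1641 in shLuc cells, and its log2 difference was -0.09 with shLuc replicate 3 and 0.69 without it. The acute phase gene Hp, also named after its values were seen, read 284 on shLuc replicate 3 and at most 5.96 on each of the other 5.

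**Figure D4:**
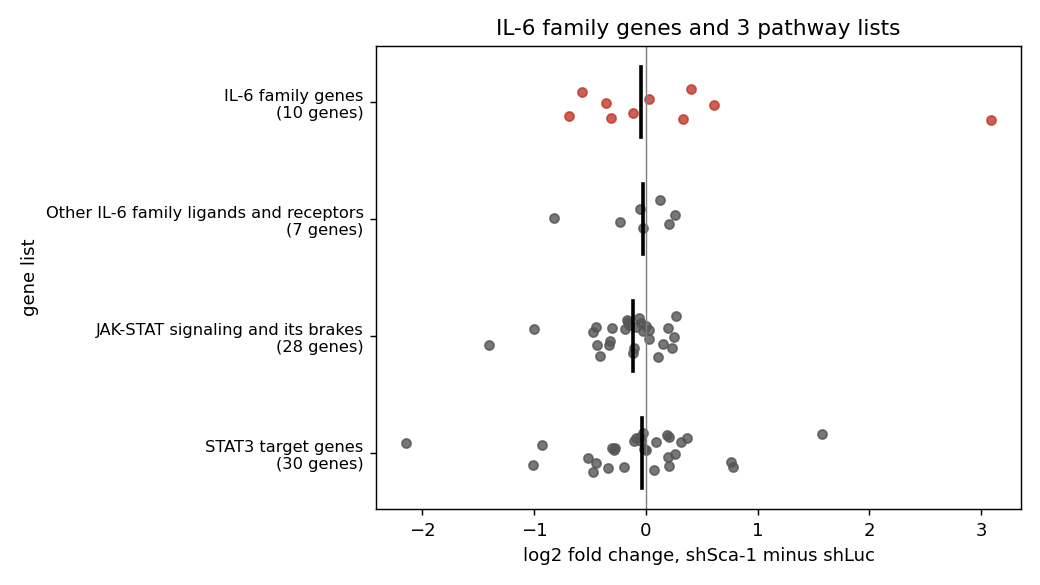
Log2 fold change (x axis, shSca-1 minus shLuc, all 6 arrays) of each gene by its brightest probe set, for the 10 IL-6 family genes in red and the 3 pathway lists in grey; black bars are medians and vertical scatter is for display. The 3 lists center at -0.03, -0.12 and -0.03, and Il6 at 3.09 lies beyond every gene of the lists.

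The genes whose profile over the 6 arrays was most like that of Il6, out of 12919 with a mean above the 40 percentile, were 2900060N12Rik (Pearson r = 0.997 of log2 intensity), the RNA-binding protein gene Syncrip (0.995), Heatr5a (0.990), Dkc1 (0.989) and Cdc20 (0.988). These r values describe 6 points that fall in 2 groups of 3 and share the same arrays. Cdc20, an activator of the anaphase promoting complex, read 4047, 3879.8 and 3648 in shSca-1 cells, against 2687, 2609.8 and 3158 in shLuc cells. Like Il6, it had shSca-1 replicate 3 lowest of its group and shLuc replicate 3 highest of its group. Choosing genes by their correlation with Il6 favors such an order, so nothing further is read from it. Dkc1, a pseudouridine synthase, read 1534, 1549 and 1459 in shSca-1 cells, against 1141, 1119 and 1319 in shLuc cells. The differences of the 5 genes ran over 0.27 to 0.95 on the log2 scale, all smaller than that of Il6.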

How the data were processed

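The authors hybridized RNA from 3 shSca-1 and 3 shLuc samples to Affymetrix mouse genome arrays, and deposited 1 linear intensity per probe set from dChip's PM-MM model after invariant set normalization; the dChip version is not given in the sources used here. Gene symbols came from the platform annotation (34945 probe sets with 1 gene, 932 with several, 9160 with none), which names no gene for the Ly6a probe set; that ID was taken from the study. Intensities under 1 were set to 1 (1.13% of values), and log2 values of 45037 probe sets, without 64 controls, were fitted in limma 3.58.1 (R 4.3.3; lmFit, eBayes with trend) with Benjamini-Hochberg adjustment; the fit was tested on simulated data. The named genes were all members, Ly6a, the markers, the 4 genes per list with the smallest p, and the 5 genes most like Il6; members and lists were chosen with earlier results of these data known. Promoters are RefSeq sequences of build GRCm38.p6. The number of arrays limits the precision. Alternatives were other floors, a filter at the 40 percentile, other normalizations and variance models, the methods' t-test and a fit with a replicate block. Each array was also left out in turn, and fold changes were also averaged over all probe sets of a gene.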

Additional observations from a re-analysis of the deposited data

How the results depend on the processing

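The log2 difference of Il6 ran over 2.43 to 3.70 across 16 alternatives, and that of Stat3 over -0.66 to -0.45. Osmr ran over -0.54 to -0.25, Lifr over -1.02 to -0.44 and Socs3 over -0.50 to -0.17. Lif stayed positive (0.13 to 0.65), while Il11, Clcf1, Il6ra and Il6st included both signs. These values are from the brightest probe set, except in the alternative that took the mean over all probe sets of a gene. That alternative gave the ends -0.44 for Lifr and 0.13 for Lif. The count of all probe sets past the study thresholds, 824, was 329 with intensities under 64 set to 64 and 507 to 1605 on leaving out 1 array. IL-6 family probe sets past them, 1 in the limma fit, were 0 by the methods' t-test and 1 to 3 on leaving out 1 array, with Stat3 1426587_a_at joining Il6 without shLuc replicate 1, shLuc replicate 2 or shSca-1 replicate 3, and Lifr 1454984_at without shSca-1 replicate 3. Leaving out 1 array gave 0 to 1 genes of the JAK-STAT list, 1 to 2 STAT3 targets and 0 further ligands or receptors. With a replicate block, 587 probe sets, 153 higher and 434 lower, and Il6 alone of the members were past the thresholds; same-numbered arrays did not deviate together (r of -0.043, -0.02 and -0.029), so the numbers were not read as pairs. Of all calls, 599 of 824 were lower in shSca-1 cells, against 481 of 808 after quantile normalization and 489 of 801 after centring arrays on their medians. The 3 arrays per group, the dim probe sets near the array median and the third shLuc array limit these values.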
